A study of Mus musculus with 12 samples.

Results

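The data are the transcript counts of 10 inflammasome genes, *Nlrp3*, *Casp1*, *Casp4*, *Gsdmd*, *Pycard*, *Naip2*, *Naip5*, *Naip6*, *Nlrp1b* and *Nlrc4*, taken by symbol from the 27457 gene rows of a single-cell RNA-seq table of mouse tumors. Each symbol matched 1 row. The tumors grew from MC38, a colon carcinoma line of C57BL/6J (B6) origin, in female hosts of 8 to 12 weeks of age after injection under the skin. Hosts were B6 mice, which are inbred, or F1 offspring of C57BL/6J and 1 Collaborative Cross strain, CC001/UncJ, CC002/UncJ, CC007/UncJ, CC036/UncJ, CC075/UncJ, CC079/TauUncJ or CC080/TauUncJ, so that every host carried at least 1 B6 copy of each autosomal gene. The Collaborative Cross is a panel of inbred mouse strains bred from several founders, and the hosts are named here by that parent. Hosts were dosed once, at a tumor size of 75 to 110 mm3, with 200 µg of an isotype control or of anti-PD-1 (aPD1). The tumors were collected after 48 h, and the cells sequenced were a sorted mixture of 90% CD45+ and 10% CD45- cells, thawed from frozen samples. There were 48 tumors, 24 per treatment, in 12 pools of 4 tumors, where every pool paired both treatments in each of 2 strains. CC001 had 8 tumors, CC007 had 4 and each other strain had 6. The study classed CC001, CC002 and CC075 as responders and CC036, CC079 and CC080 as non-responders from tumor growth in other animals, and B6 and CC007 tumors stand in no class here.

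Inflammasomes are protein platforms that form in the cytosol when a sensor meets a microbial product or a sign of cell damage. Sensors of the NLR family recruit the adaptor ASC, which activates caspase-1, and caspase-1 in turn cuts the precursors of IL-1β and IL-18 and opens gasdermin D, the pore that ends in pyroptotic death. In tumors these genes are best known from myeloid cells, above all monocytes, macrophages and neutrophils, where most of the machinery sits ready before a signal arrives.

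By role, the sensors were *Nlrp3*, which responds to ion fluxes and membrane damage and whose transcript is induced by NF-kB (GRCm38 chr11:59541568-59566956, + strand), *Nlrp1b*, which responds to bacterial proteases (chr11:71153102-71230733, - strand), and *Nlrc4*, which is driven by NAIP proteins (chr17:74425438-74459142, - strand). The NAIP receptors bind bacterial ligands and hand them to NLRC4. NAIP5 and NAIP6 recognise flagellin and NAIP2 a rod protein of bacterial secretion systems, and their genes lie side by side, *Naip2* at chr13:100144063-100202092, *Naip5* at chr13:100211739-100246323 and *Naip6* at chr13:100281121-100317674, all on the - strand. *Pycard* encodes the adaptor ASC (chr7:127989708-127993867, - strand). *Casp1* (chr9:5298517-5307265, + strand) and *Casp4* (chr9:5308828-5336783, + strand) are neighbours. *Casp4* encodes caspase-11 of the mouse, which binds bacterial lipopolysaccharide directly. *Gsdmd* encodes the pore-forming gasdermin D (chr15:75862327-75867408, + strand). All are annotated as protein coding, and the counts are per whole gene, so they do not tell exons or UTRs apart.

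The start regions of 4 genes are shown because *Casp4*, *Naip6* and *Nlrc4* passed the test between the response classes in macrophages and *Nlrp3* is the sensor with the widest span between cell types. They are RefSeq windows of the GRCm38.p6 reference (B6), 250 bases before to 50 after an annotated start, written in the direction of the gene with matches of the searched motifs in capitals. The windows are *Casp4* chr9:5308599-5308898, *Nlrp3* chr11:59541319-59541618, *Naip6* chr13:100316567-100316866 and *Nlrc4* chr17:74459059-74459358.
Casp4: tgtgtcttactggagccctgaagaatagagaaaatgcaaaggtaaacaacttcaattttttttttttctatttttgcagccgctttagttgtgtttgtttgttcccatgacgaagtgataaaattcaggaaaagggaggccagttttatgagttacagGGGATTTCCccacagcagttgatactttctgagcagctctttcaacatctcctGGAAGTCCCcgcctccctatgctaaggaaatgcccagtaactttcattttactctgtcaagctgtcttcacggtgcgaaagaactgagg
Nlrp3: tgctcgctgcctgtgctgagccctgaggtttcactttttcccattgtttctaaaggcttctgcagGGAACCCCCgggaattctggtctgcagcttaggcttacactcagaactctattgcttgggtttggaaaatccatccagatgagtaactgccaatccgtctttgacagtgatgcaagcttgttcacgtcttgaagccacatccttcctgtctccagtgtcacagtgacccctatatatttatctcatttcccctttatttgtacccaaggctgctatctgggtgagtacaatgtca
Naip6: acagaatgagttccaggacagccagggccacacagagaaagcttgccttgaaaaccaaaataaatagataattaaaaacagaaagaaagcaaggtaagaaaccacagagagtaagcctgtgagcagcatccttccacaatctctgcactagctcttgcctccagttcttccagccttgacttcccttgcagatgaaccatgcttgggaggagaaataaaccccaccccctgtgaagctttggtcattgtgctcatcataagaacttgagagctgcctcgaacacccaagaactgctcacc
Nlrc4: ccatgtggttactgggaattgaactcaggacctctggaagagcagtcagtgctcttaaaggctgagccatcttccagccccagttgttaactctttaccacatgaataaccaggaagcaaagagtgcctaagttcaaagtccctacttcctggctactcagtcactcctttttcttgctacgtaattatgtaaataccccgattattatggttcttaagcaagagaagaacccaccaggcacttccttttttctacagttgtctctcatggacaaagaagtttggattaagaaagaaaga
The *Casp4* window held 2 NF-kB-like matches (GGGNNTTCC on either strand), GGGATTTCC 92 bases and GGAAGTCCC 39 bases before the start. The *Nlrp3* window held 1, at 185 bases before the start, and the window of a second annotated start of *Nlrp3* had another, GGGCTTTCC, at 94 bases before it. These letters occurred in 5.82% of all 32851 start windows. No ISRE-like (GAAANNGAA), GAS-like (TTCNNNGAA) or PU.1-like (GAGGAAGT) match lay in the 4 windows shown, against 8.56%, 8.30% and 3.20% of all windows. Among the other members *Naip2* held an ISRE-like match 4 bases before its start, *Pycard* a PU.1-like match at 44 and *Nlrp1b* a PU.1-like match at 96. A match is a run of letters in the B6 reference only, and the Collaborative Cross copies were not read here.

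The table held 93126 cells, with a median of 3333.5 unique molecular identifiers (UMIs, each marking 1 captured transcript) per cell. The deposited table gives the authors' 27 clusters by number, and they were named here from marker lists rather than by the study's own cell types. Of these, 10 clusters with 68059 cells were macrophages (monocytes included) and 9 clusters with 12021 cells were T/NK cells. Cluster 24 (1614 cells) passed no list and was counted as T/NK, with *Ncr1* and *Klrb1c* among its 10 genes of largest fold. Cluster 25 passed the MC38 or epithelial list with 5 of 6 markers but was left unnamed, with immunoglobulin genes also among its top 10. A tumor held 53 to 3082 cells and 88816 to 17713491 UMIs. The 3 tumors with under 500 cells were the CC007 aPD1 tumor of pool 6 (53 cells), the CC002 isotype tumor of pool 12 (248 cells) and the B6 isotype tumor of pool 7 (345 cells). The same barcode sequence occurred in more than 1 library for 10.9% of cells, which were kept apart by library. A single animal identifier stood on 2 CC080 tumors, isotype in pool 3 and aPD1 in pool 4.

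Every member was detected in macrophages, T/NK cells and dendritic cells, at levels that differed by gene. Levels by cell type are counts per 1000000 UMIs (CPM) of the summed cells, or their mean over tumors with at least 20 such cells, and since clusters were built from these same cells they are a description without a test. Macrophage clusters, which gave most of the cells, held from 75.2% of all *Casp4* UMIs to 91.7% of all *Nlrc4* UMIs, beside 72.7% of the UMIs of all genes.

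**Figure D1:**
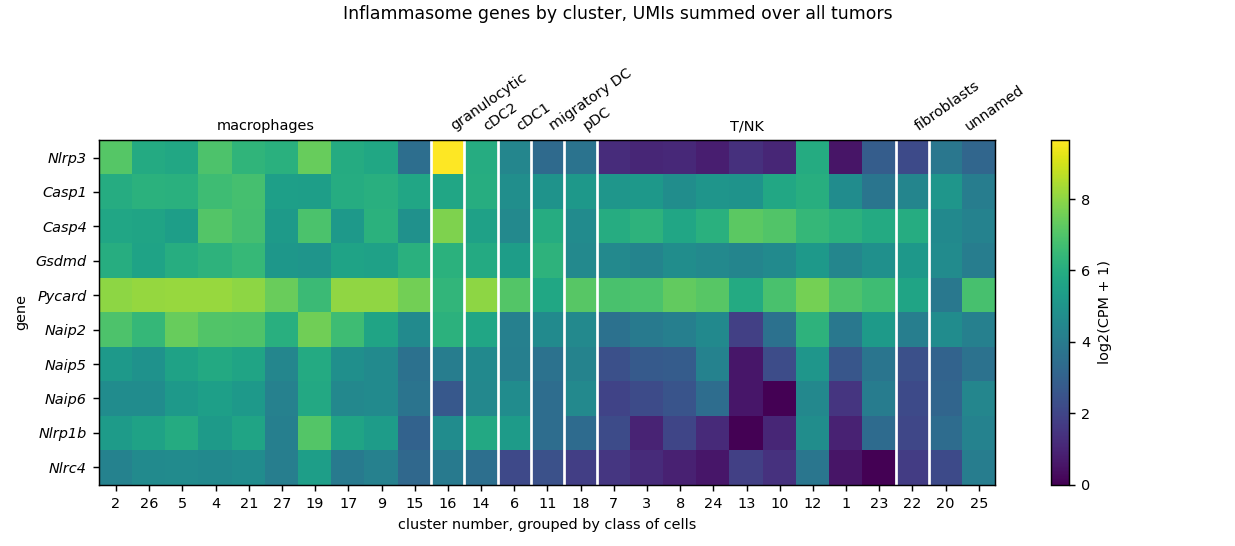
Level of each inflammasome gene in each of the 27 clusters, as log2(CPM + 1) of UMIs summed over all tumors, with clusters (x axis) grouped by class of cells and genes on the y axis. Nlrp3 is brightest in granulocytic cluster 16 (800.2 CPM), Casp4 stays bright across the T/NK clusters, and Naip2, Naip5, Naip6, Nlrp1b and Nlrc4 are dim there except in cluster 12.

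*Nlrp3* stood apart in the granulocytic cells of cluster 16, at 800.2 CPM from 450 UMIs in 529 cells, and at 841 ± 434 CPM (SD, n = 7 tumors with at least 20 such cells). Next in order were macrophage cluster 19 at 176 ± 97.7 CPM (n = 45) and macrophage cluster 2 at 136 ± 52.6 CPM (n = 47). The step from cluster 16 to cluster 19 was larger than the larger of the 2 SDs, and over all 24 neighbouring pairs of clusters, ordered by the level of their summed cells, only 1 other step was. In all macrophages the level was 97.2 ± 45.7 CPM (n = 48), in conventional dendritic cells of type cDC2 66.4 ± 31.6 (n = 44), of type cDC1 19.97 ± 9.66 (n = 27) and in T/NK cells 6.46 ± 8.37 (n = 47). Cells of cluster 16 were shallow, with a median of 815 UMIs.

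*Casp4* was also highest in the granulocytic cells, at 293 ± 157 CPM (n = 7), and it was the only member whose T/NK level was above its macrophage level. It reached 164 ± 63.0 CPM in T/NK cluster 13 (n = 9), a cluster led by *Il2* and *Ifng*, and 139 ± 68.1 CPM in T/NK cluster 10 (n = 7). Macrophage cluster 4 had 136 ± 48.1 CPM (n = 44). In the order of summed levels no step between neighbouring clusters exceeded the larger SD. Over all cells of a class, *Casp4* stood at 75.7 CPM in T/NK cells and 55.5 CPM in macrophages, so that the T/NK level was 136% of the macrophage level. By strain, the median over tumors was lower in T/NK cells than in macrophages in B6 and CC001, and higher in every other strain.

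*Casp1* was highest in macrophage clusters 21 (111 ± 23.4 CPM, n = 45) and 4 (103 ± 32.7 CPM, n = 44) in mean level. The granulocytic cells had 82.5 ± 52.6 CPM (n = 7), a range that reached cluster 4, and macrophage cluster 26 had 68.6 ± 16.6 CPM (n = 47). *Gsdmd* had the same clusters first, 21 at 86.2 ± 20.5 CPM and 4 at 76.5 ± 25.8 CPM. Close by were macrophage cluster 15 (293 cells) with a mean of 76.0 CPM and migratory dendritic cells (DC) of cluster 11 at 70.5 ± 25.6 CPM (n = 39). *Pycard* was spread over most myeloid clusters, at 257 ± 43.4 CPM in macrophages, 250.4 ± 45.8 in cDC2, 135 ± 33.2 in cDC1 and 137 ± 37.4 in T/NK cells. Its mean was lower in macrophage cluster 19 (89.3 CPM), granulocytic cells (59.7 CPM) and migratory DC (52.9 CPM). The T/NK level as a share of the macrophage level was 50.7% for *Casp1*, 50.1% for *Pycard* and 40.5% for *Gsdmd*.

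The NAIP and NLRC4 genes and *Nlrp1b* were highest in macrophage cluster 19. There *Naip2* stood at 197 ± 67.4 CPM, *Nlrp1b* at 145 ± 71.7, *Naip5* at 60.1 ± 27.3, *Naip6* at 57.4 ± 24.2 and *Nlrc4* at 43.0 ± 24.9 (n = 45 tumors each). Only for *Nlrp1b* did the step to the next cluster (62.3 CPM in cluster 5) exceed the larger of the 2 SDs. Next for the others were *Naip2* in cluster 5 (167 CPM), *Naip5* and *Naip6* in cluster 4 (54.0 and 42.4) and *Nlrc4* in cluster 21 (25.5). In cluster 19, 9 of 10 macrophage markers reached 100 CPM. None was among its 10 genes of largest fold, which also held for macrophage clusters 4, 5, 9, 15, 17, 21 and 27. Cluster 19 had a median of 1225 UMIs per cell, under the 3881 of cluster 2. Its part in these levels was not tested. In macrophages as a whole the same genes stood at 116 ± 23.5, 47.0 ± 17.5, 37.7 ± 9.05, 28.0 ± 5.26 and 20.8 ± 6.96 CPM (n = 48). In dendritic cells *Nlrp1b* stood at 57.4 ± 20.8 CPM in cDC2 (n = 44) and 35.6 ± 16.8 in cDC1 (n = 27), and *Naip6* at 25.9 ± 12.6 CPM in cDC1, each within 1 SD of the level in macrophages as a whole.

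In T/NK cells these 5 genes had from 8.28% (*Nlrp1b*) to 24.4% (*Naip5*) of their macrophage level, and *Nlrp3* had 6.51%. Of 10 macrophage markers, 8 had a T/NK level of 4.02% to 5.19% of the macrophage level, while *Ccr2* had 29.0% and *Ly6c2* 87.9%, genes that T and NK cells also use. T/NK cluster 12 (535 cells), in which hemoglobin genes and granzymes led, held 81.6% of all T/NK *Nlrp3* UMIs, 53.2% of *Nlrp1b* and 46.5% of *Nlrc4*, but 8.65% of *Casp4*. The *Nlrp3* share was nearest to those of the 8 markers, and the shares of *Nlrp1b* and *Nlrc4* (9.97%) were above them. The part of RNA from macrophages in these levels was not tested. No doublet caller was run.

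The next comparison asks whether the host strain set the level of each gene in macrophages. UMI counts of all macrophages of a tumor were summed, and edgeR's quasi-likelihood F test with Benjamini-Hochberg adjustment over all genes compared the 8 strains over both treatments. In macrophages 9 of the 10 members differed among strains at an adjusted p under 0.05, all except *Casp1*, beside 48.3% of all 13010 genes tested. Levels per tumor below are CPM scaled by TMM, edgeR's correction of library sizes, and the span is the log2 difference between the highest and the lowest strain. With the pool added as a block, 4 of 10 members passed, *Casp4*, *Naip6*, *Nlrp1b* and *Nlrc4*, and 1892 genes in place of 6286. Summed counts cannot tell fewer expressing cells from less RNA per cell. Reads of all hosts were aligned to the B6 genome for every gene, *Casp4* and *Nlrc4* included. The part of sequence differences from B6 in the strain levels was not tested.

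**Figure D2:**
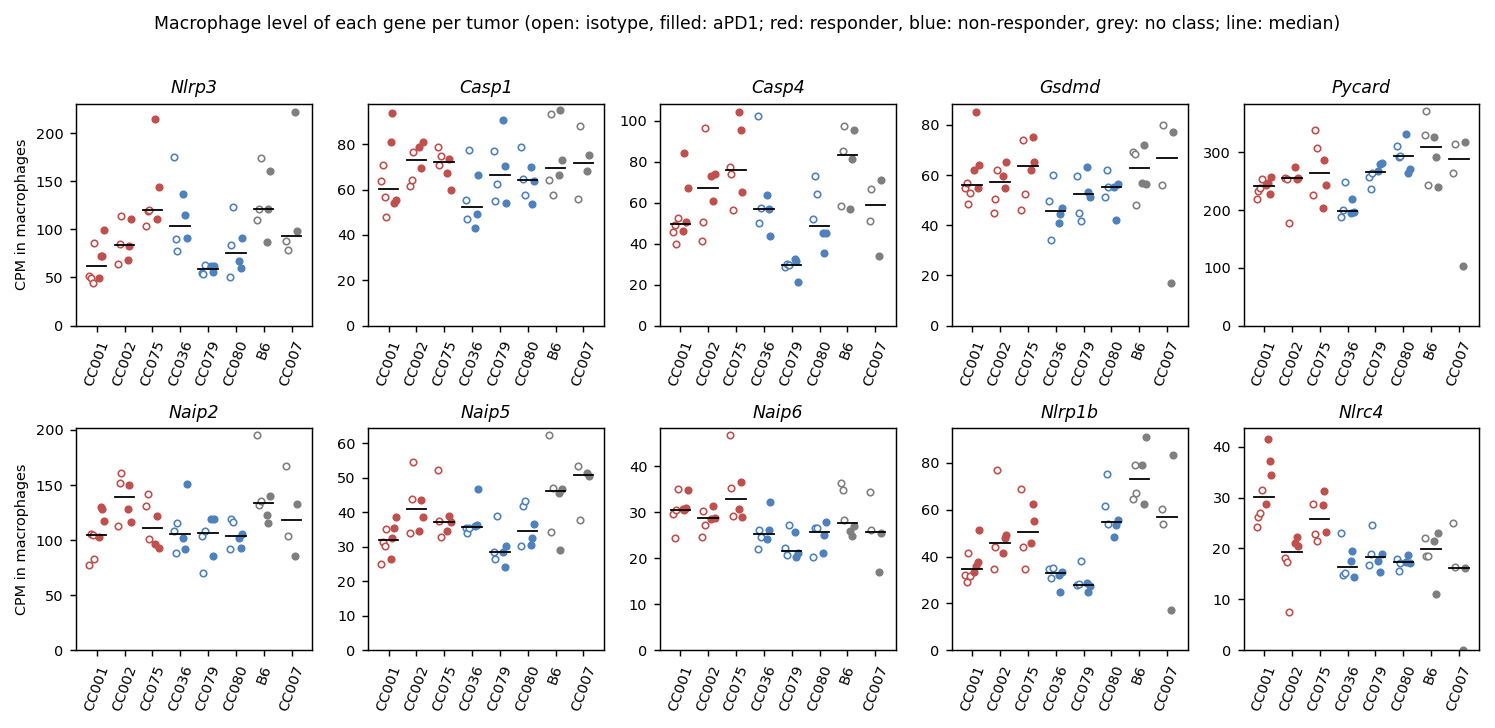
Macrophage level of each gene in each of the 48 tumors (y axis, CPM scaled by TMM) by host strain (x axis), with open points for isotype, filled points for aPD1, red for responder, blue for non-responder and grey for unclassed strains, and a line at the strain median. All 6 CC079 tumors lie below the other 42 for Casp4, at 21.1 to 32.3 CPM, and the 8 CC001 tumors are high for Nlrc4, at 24.2 to 41.5 CPM.

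*Casp4* had the widest span of the members, 1.45 (adjusted p = 3.34e-06; 3.52e-05 with the pool block). Macrophages of the 6 CC079 tumors had 28.7, 30.0 and 29.4 CPM under isotype and 32.3, 31.7 and 21.1 CPM under aPD1, in pools 1, 2 and 5. The lowest of the 42 other tumors had 34.2 CPM, from only 2 UMIs in the CC007 aPD1 tumor of pool 6, and the next had 35.4 CPM. CC079 thus did not overlap any other strain. Among the 80 combinations of a member and a strain in macrophages this was the only one in which a strain lay wholly outside the rest. The strain medians were otherwise 48.6 CPM in CC080 (35.4 to 73.2), 49.8 in CC001 (40.0 to 84.6), 57.2 in CC036 (43.8 to 102), 67.0 in CC002 (41.2 to 96.6), 75.9 in CC075 (56.4 to 104) and 83.6 in B6 (56.9 to 97.5). These 6 strains overlapped one another. The 4 CC007 tumors had 51.1 and 66.8 CPM under isotype and 34.2 and 70.9 under aPD1.

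The low *Casp4* of CC079 was present within single macrophage clusters. The next lowest strain mean was 45.5 ± 5.45 CPM in cluster 2, 35.3 ± 12.5 in cluster 5 and 45.01 ± 13.3 in cluster 26, all in CC080, against CC079 means of 22.6 ± 1.83, 18.2 ± 4.89 and 24.9 ± 4.81 (SD, n = 6 each). The CC079 and CC080 ranges did not overlap in clusters 2 and 26 and overlapped in cluster 5. Neighbouring *Casp1* showed no such gap, with 54.2 to 90.7 CPM in CC079 and 43.3 to 95.3 CPM in the other tumors.

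*Nlrc4* had a span of 0.89 (adjusted p = 4.53e-06; 1.54e-05 with the block). CC001 was the highest strain, at 24.2, 31.4, 26.1 and 27.01 CPM in its isotype tumors and 28.7, 34.4, 41.5 and 37.2 CPM in its aPD1 tumors, in pools 1, 12, 2 and 4. CC075 followed with 21.4 to 31.2 CPM and a median of 25.9. Every CC075 and CC001 tumor was thus above all 6 CC080 tumors, which had 15.5 to 18.8 CPM. The medians were 19.96 in B6, 19.4 in CC002, 18.3 in CC079, 16.4 in CC036 and 17.3 in CC080, and the ranges of these 5 strains overlapped. The CC007 aPD1 tumor of pool 6, with 30 macrophages, had no *Nlrc4* UMI, which allows a level of up to 51.2 CPM, the value of 3 counts there (counting error only).

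*Nlrp1b* had a span of 1.34, with the smallest adjusted p of the members (9.45e-09; 0.000356 with the block). B6 was highest, with 62.4 to 91.0 CPM and a median of 73.0. CC079 was lowest, with 24.9 to 38.2 CPM and a median of 28.0, and CC036 (24.7 to 35.2, median 32.9) and CC001 (29.0 to 51.2, median 34.7) were close to it. None of these 3 strains overlapped B6. CC002 (34.6 to 76.8), CC075 (34.6 to 68.9) and CC080 (48.2 to 75.3) lay between, and each overlapped B6. The 4 CC007 tumors ranged from 17.1 to 83.4 CPM, the lowest from the tumor with 53 cells.

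*Nlrp3* had a span of 1.19 (adjusted p = 5.23e-05), which did not pass with the pool block (adjusted p = 0.126). CC079 was low and narrow, at 53.6 to 63.4 CPM with a median of 59.1, and CC001 had a median of 61.9 (43.9 to 99.8). CC075 (103.9 to 215, median 120) and B6 (87.4 to 175, median 121) were highest. All CC075 and B6 tumors were above all CC079 tumors. Here and for the other members, CC079 shared no pool with CC075 or B6. *Nlrp3* also differed by pool within strains. CC080 had 124 and 90.8 CPM in pool 11 and 50.7 to 84.3 CPM in pools 3 and 4. In pool 12, CC002 had 114 and 111 CPM (63.6 to 84.7 in its other pools) and CC001 86.0 and 99.8 CPM (43.9 to 72.7 in its other pools). The medians of CC080 (75.6), CC002 (84.0), CC007 (92.9) and CC036 (103) lay between. Of these, CC080 (50.7 to 124) overlapped CC079, and CC002, CC007 and CC036 did not.

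*Naip6* had a span of 0.59 (adjusted p = 0.000853; 0.00469 with the block), from a median of 21.7 CPM in CC079 (20.3 to 27.3) to 33.0 CPM in CC075 (29.1 to 46.8). The 2 ranges did not overlap. *Naip5* had a span of 0.71 (adjusted p = 0.00378), from 28.5 CPM in CC079 to 50.8 CPM in CC007 as medians. *Naip2* had a span of 0.47 (adjusted p = 0.0217), from CC079 to B6 in the fit. As medians its extremes were other strains, 104 CPM in CC080 and 139 CPM in CC002. Neither *Naip5* nor *Naip2* passed with the block (adjusted p = 0.112 and 0.21). The reference transcripts of these genes share sequence. Of their 60-base stretches, 30.5% in *Naip5*, 16.7% in *Naip6* and 15.1% in *Naip2* also occur in another gene, mostly another *Naip*, and in the first 500 bases, where 5′ reads fall, the share was 56.9% for *Naip5* and 24.5% for *Naip6*. *Nlrp1b* shared 0.892% with *Nlrp1a* and an *Nlrp1* pseudogene. Reads that match 2 genes equally are usually not counted, and reads from hosts with other *Naip* or *Nlrp1* copies than B6 were aligned to the B6 genome, so that strain values of these genes are uncertain.

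The adaptor, the pore and *Casp1* had modest spans. *Pycard* had a span of 0.52 (adjusted p = 0.0118; 0.126 with the block), from a median of 198 CPM in CC036 to 309 CPM in B6. *Gsdmd* had a span of 0.60 (adjusted p = 0.0426; 0.184 with the block), from 45.7 CPM in CC036 to 66.8 CPM in CC007, and its call held in 13 of 36 alternatives. *Casp1* had a span of 0.39 (adjusted p = 0.387), with strain medians of 52.5 to 73.2 CPM. For these genes every strain overlapped every other in at least part of its range, apart from *Pycard*, where all CC080 tumors (264 to 332 CPM) were above all CC036 (187.8 to 249.2) and all CC001 tumors (219.6 to 256.5).

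Across all sorted cells of a tumor 5 of 10 members differed among strains, *Nlrp3*, *Casp4*, *Naip5*, *Nlrp1b* and *Nlrc4*, beside 41.5% of 15137 genes. With the block 3 did, *Casp4*, *Nlrp1b* and *Nlrc4*, beside 985 of the 15137 genes.

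The study's central contrast sets responder against non-responder hosts. In macrophages 3 of 10 members were higher in responder strains and none was lower, beside 10.6% of all genes tested (1373, of which 805 higher). *Nlrc4* was 1.41 times as high (log2 0.49 ± 0.08 SE, adjusted p = 9.42e-05, edgeR quasi-likelihood test), *Casp4* 1.43 times (log2 0.51 ± 0.10, adjusted p = 0.000797) and *Naip6* 1.28 times (log2 0.35 ± 0.06, adjusted p = 0.000222). The median log2 difference of the members was 0.20, against -0.01 over all genes. The tumors of a strain are not independent samples of a class. With counts summed per strain, 3 strains against 3, no member passed (adjusted p = 0.984 for *Casp4*, 0.775 for *Naip6* and 0.776 for *Nlrc4*) and 3 genes did in all.

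**Figure D3:**
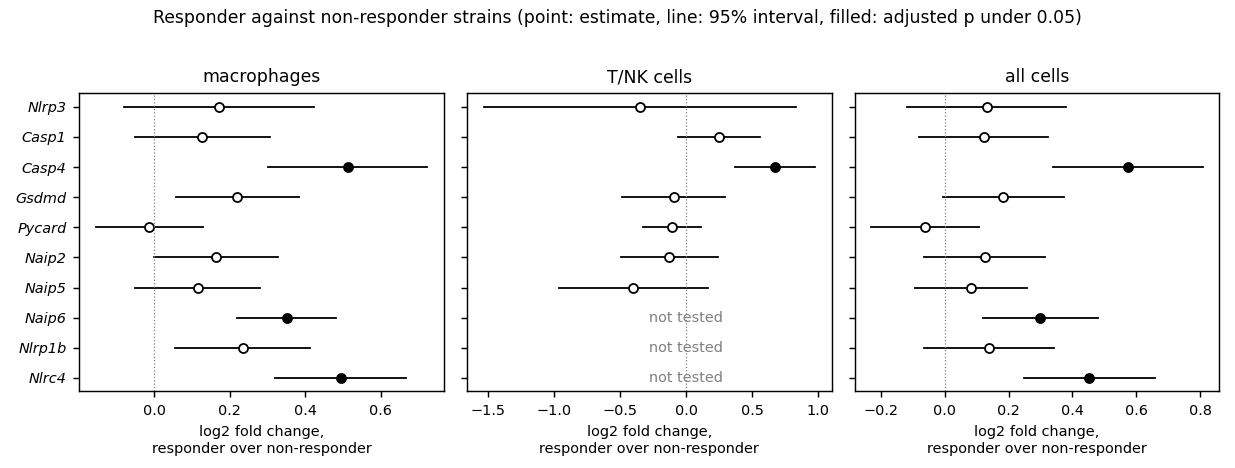
Log2 fold change of each gene, responder over non-responder strains (x axis), in macrophages, T/NK cells and all cells (panels), with lines for the 95% interval and filled points for an adjusted p under 0.05. Casp4 is filled in all 3 panels (0.51, 0.67 and 0.57), Naip6 and Nlrc4 in macrophages and all cells, and every other gene tested is open, with the intervals of Gsdmd and Nlrp1b in macrophages the only open ones that lie wholly above 0.

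For *Casp4* the 20 responder tumors had a median of 62.9 CPM (40.0 to 104) and the 18 non-responder tumors 45.3 CPM (21.1 to 102). With CC079 left out the *Casp4* difference was 0.20 (adjusted p = 0.345), and with CC075 left out 0.37 (adjusted p = 0.0396). For *Nlrc4* the responder tumors had a median of 25.2 CPM (7.43 to 41.5) and the non-responder tumors 17.5 CPM (14.4 to 24.6). The *Nlrc4* call held with each strain left out, at a lowest value of 0.32 (adjusted p = 0.0305) without CC001. For *Naip6* the medians were 30.4 CPM (24.5 to 46.8) and 24.8 CPM (20.3 to 32.4), and leaving out a strain gave 0.28 to 0.41. For all 3 genes the classes overlapped in single tumors. In pools 8 to 12 alone, which held CC036 as well as CC075, none of the 3 passed (adjusted p = 0.379 to 0.397), and in pools 1 to 5 alone, which held neither, all 3 did. Over all 43 alternatives, these sets of pools included, the lowest log2 difference was 0.20 for *Casp4*, 0.21 for *Naip6* and 0.32 for *Nlrc4*.

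The other 7 members did not pass. Of 43 alternatives *Nlrp3* (0.17) passed in 2, with CC001 or CC036 left out (adjusted p = 0.0476 and 0.0397). *Nlrp1b* passed in 5, among them with CC001 or CC080 left out (0.0136 and 0.000408) and in cluster 5 alone (0.0496), *Gsdmd* in 4, with the lowest adjusted p in cluster 26 alone (0.000344), and *Naip2* in 1, cluster 26 alone (0.0245). *Gsdmd* (0.22 ± 0.08, adjusted p = 0.0725) and *Nlrp1b* (0.23 ± 0.09, adjusted p = 0.0849) came closest, and *Naip2* (0.16), *Casp1* (0.13) and *Naip5* (0.12) had smaller differences. *Pycard* was at -0.01 with a 95% interval from -0.15 to 0.13. The makeup of the macrophages differed among tumors. Clusters 4 and 21, in which *Casp1*, *Casp4* and *Gsdmd* were high, made up a median of 10.2% of responder macrophages (4.76% to 23.4%). In non-responder tumors the median was 14.1% (9.72% to 25.9%), and these ranges overlapped. The strains did not all follow the class, with medians of 13.8% in responder CC075 and 13.3% in non-responder CC079. The difference in makeup was not tested. Within single clusters, *Casp4* and *Nlrc4* differed in the same direction in cluster 2 (0.56 and 0.45), cluster 5 (0.63 and 0.59) and cluster 26 (0.60 and 0.51), each with an adjusted p under 0.05, and *Naip6* in clusters 2 and 26 (0.39 and 0.38) but not in cluster 5 (0.21, adjusted p = 0.297). These single-cluster fits used parts of the same macrophage counts, with tumors of a strain as replicates, so they are no independent test. They were not run with counts summed per strain. Over all sorted cells, these macrophages included, the same 3 genes were higher in responder strains, beside 5.21% of all genes. The log2 differences were 0.57, 0.30 and 0.45 for *Casp4*, *Naip6* and *Nlrc4*. None of these 3 calls held with counts summed per strain (adjusted p = 1 each), in pools 1 to 5 alone (0.0535 to 0.13) or in pools 8 to 12 alone (0.526 to 0.886). Over all cells *Casp4* also did not pass without CC079 (adjusted p = 0.332) or CC075 (0.0692), nor *Nlrc4* without CC001 (0.161). The *Naip6* call over all cells held in 20 of 39 alternatives, and with the block it did not pass (adjusted p = 0.0648).

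In T/NK cells *Casp4* also differed among strains, with CC079 the lowest in the fit. Of the members 7 had enough counts to test, all except *Naip6*, *Nlrp1b* and *Nlrc4*, and 5 of these differed among strains (*Nlrp3*, *Casp1*, *Casp4*, *Pycard* and *Naip2*), beside 20.2% of 8932 genes. With the pool block 2 did, *Casp4* and *Casp1*, beside 619 of the 8932 genes. *Casp4* had a span of 1.80 (adjusted p = 1.09e-05), from CC079 to CC075. The 6 CC079 tumors had 28.8, 34.96, 35.1, 38.8, 43.5 and 53.7 CPM, from 5 to 18 UMIs each. The CC075 tumors had 79.2 to 171 CPM and the CC002 tumors 86.4 to 115 CPM, all above CC079. The 4 CC007 tumors, at 57.7 to 80.5 CPM, were also above CC079, the lowest of them from only 8 T/NK cells. CC001 was also low here, with a median of 47.4 CPM (32.9 to 67.8), and overlapped CC079, as did B6 (22.1 to 118), CC080 (34.4 to 78.1) and CC036 (41.96 to 89.2). The lowest single tumor was a B6 tumor. These counts come from the same tumors and pools as the macrophage counts, so they are no independent test of the pattern.

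**Figure D4:**
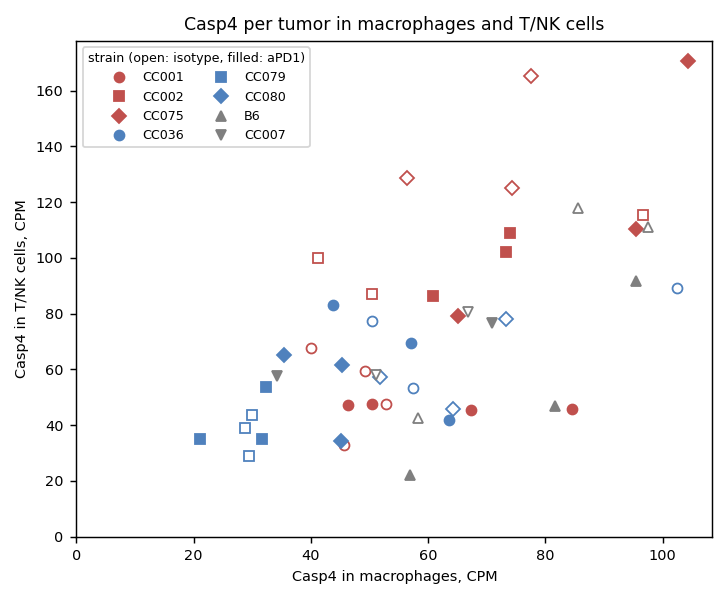
Casp4 in macrophages (x axis, CPM) against Casp4 in T/NK cells (y axis, CPM) for each tumor, open for isotype and filled for aPD1. Strains are told apart by marker shape together with red for responder, blue for non-responder and grey for unclassed strains. A shape is shared by CC001 and CC036, by CC002 and CC079, and by CC075 and CC080. The CC079 tumors lie at the lower left, at 21.1 to 32.3 CPM in macrophages and 28.8 to 53.7 CPM in T/NK cells. The CC075 tumors run from the middle to the upper right, at 56.4 to 104 CPM in macrophages and 79.2 to 171 CPM in T/NK cells.

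Between response classes *Casp4* was the single member to pass in T/NK cells, 1.60 times as high in responder strains (log2 0.67 ± 0.15 SE, adjusted p = 0.0051), beside 3.76% of all genes. Responder tumors had a median of 86.7 CPM (32.9 to 170.5) and non-responder tumors 53.5 CPM (28.8 to 89.2). The call was lost without CC075 (0.36, adjusted p = 0.237), without CC079 (0.42, adjusted p = 0.171) without CC002 (0.57, adjusted p = 0.063), in a comparison of 3 strains against 3 (adjusted p = 1), and in pools 1 to 5 alone (0.41) and pools 8 to 12 alone (0.74), each with an adjusted p = 0.145. Leaving out cluster 12 gave 0.70 (adjusted p = 0.00905). T/NK clusters differed in *Casp4* level, with means from 47.7 CPM in cluster 8 to 164 CPM in cluster 13 among others. No T/NK cluster was fitted alone, and the part of the makeup of the T/NK cells in this difference was not tested. The other 6 members tested had log2 differences of -0.40 (*Naip5*) to 0.25 (*Casp1*). *Casp1* in T/NK cells was highest in CC002 (39.7 to 76.9 CPM) and lowest in CC001 (16.9 to 40.4), and these ranges touched. *Pycard* was highest in CC079 (136 to 218 CPM) and lowest in CC036 (64.9 to 134), which did not overlap.

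The treatment comparison asks what a single dose of aPD1 did within 48 h, averaged over all strains, responder, non-responder and unclassed. A change limited to some strains would be diluted in this average. aPD1 against isotype was not tested within the responder strains alone, so the results do not show whether aPD1 acted there. No member passed in macrophages, where 0% of genes did (457 of 13010 had an unadjusted p under 0.05, and DESeq2 also called 0). The same held in T/NK cells (0%, with 368 genes at an unadjusted p under 0.05, DESeq2 0) and over all cells (0%, with 443 such genes, DESeq2 1, which was no member). No hashtag antibody was used for both treatments, and hashtag and treatment effects cannot be told apart. In macrophages the log2 differences of the members ran from -0.06 (*Naip6*) to 0.14 (*Nlrp3*). The 95% interval was -0.16 to 0.23 for *Casp4*, -0.09 to 0.38 for *Nlrp3* and -0.17 to 0.09 for *Pycard*. In T/NK cells *Nlrp3* had 1.05 ± 0.50 SE at an unadjusted p of 0.0406 (adjusted p = 1) from 190 UMIs in all, most of them in cluster 12.

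**Figure D5:**
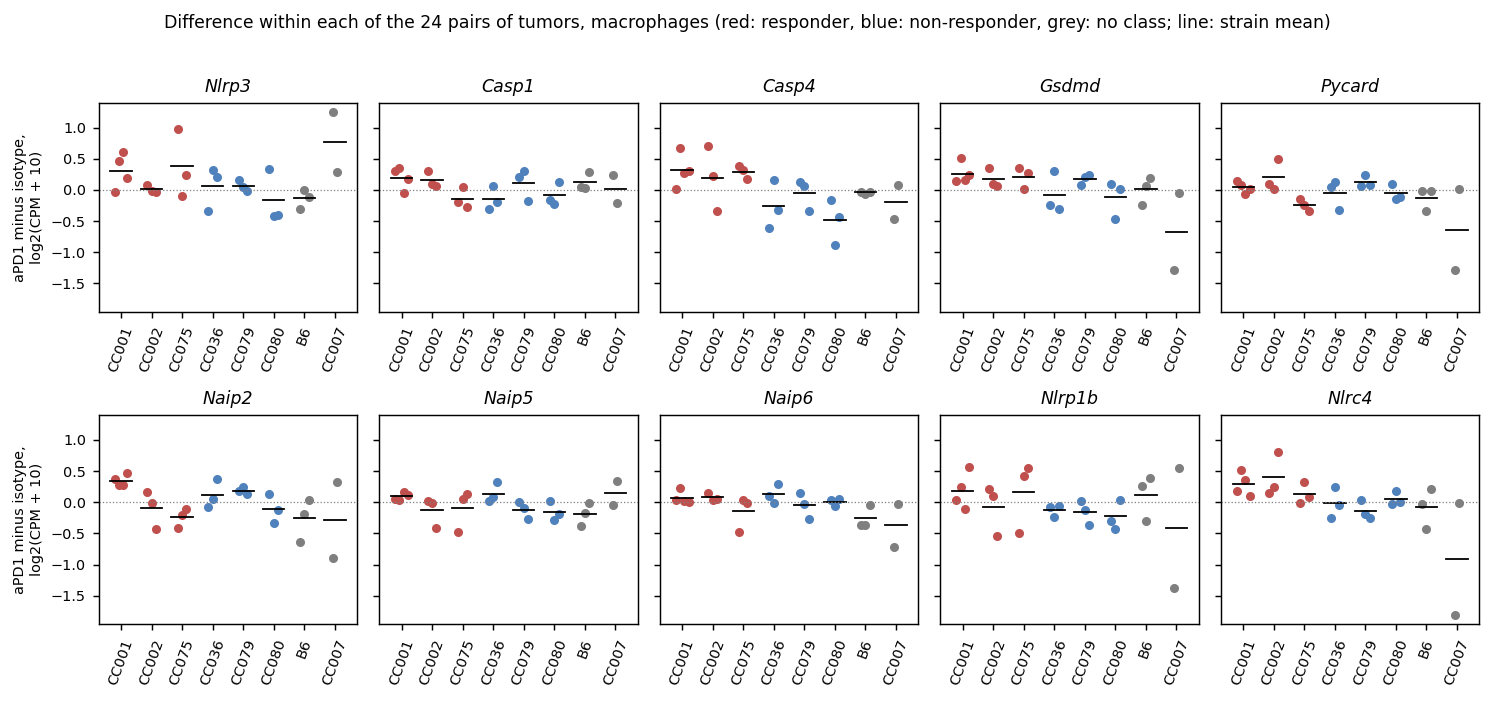
Difference between the aPD1 and the isotype tumor within each of the 24 pairs of a strain and pool, in macrophages, on the log2(CPM + 10) scale (y axis) by strain (x axis), with a line at the strain mean. For Casp4 9 of 10 responder pairs lie above 0 and 6 of 9 non-responder pairs below it, and for Gsdmd all 10 responder pairs lie above 0. The pair that holds the tumor with 53 cells gives the lower CC007 point for each gene but Nlrp3 and Casp1, where it gives the higher.

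By pair, on the log2(CPM + 10) scale, *Gsdmd* was higher under aPD1 in 18 of 24 pairs, *Casp1* in 15, *Nlrp3* and *Nlrc4* in 14, *Casp4*, *Pycard* and *Naip2* in 13, and *Naip5*, *Naip6* and *Nlrp1b* in 12. The aPD1 difference of *Casp4* was 0.27 ± 0.30 (SD) in the 10 responder pairs and -0.27 ± 0.35 in the 9 non-responder pairs. It was above 0 in 4 of 4 CC001, 2 of 3 CC002 and 3 of 3 CC075 pairs, and in 1 of 3 CC036, 2 of 3 CC079 and 0 of 3 CC080 pairs. The test of this difference between the classes gave 0.66 ± 0.21 SE with an unadjusted p of 0.00282 and an adjusted p of 0.417 (0.164 to 0.855 over the alternatives), so it did not pass. Among all genes 0% passed that test, 1268 had an unadjusted p under 0.05 and DESeq2 called 1 gene, which was no member. *Gsdmd* was higher under aPD1 in 10 of 10 responder and 6 of 9 non-responder pairs (0.29 ± 0.16 SE, adjusted p = 0.567), and *Nlrc4* in 9 of 10 and 4 of 9 (0.34 ± 0.17 SE, adjusted p = 0.51). No variation of the aPD1 difference among the 8 strains was called for any member, with 2 to 4 pairs per strain. The test called 0% of genes, with 525 at an unadjusted p under 0.05 and 0 by DESeq2. The lowest unadjusted p among the members was 0.104, for *Casp4*.

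Other genes of the pathway were taken as a list of 32 (9 sensors, 11 partners and executioners, 7 inhibitors, and 5 cytokines and their antagonists), of which 29 could be tested in macrophages. Of these 20 differed among strains, beside 48.3% of all genes, namely 4 of 6 sensors, 6 of 11 partners, 6 of 7 inhibitors and 4 of 5 cytokines and antagonists. The 6 with the smallest adjusted p were *Casp12* (span 2.25, 8.28e-07), a caspase gene beside *Casp4*, *Nod1* (1.39, 9.59e-06) and *Nod2* (1.67, 0.0001), sensors of bacterial cell wall fragments, *Cflar* (0.66, 3.11e-05) and *Birc3* (0.84, 4.02e-05), which restrain caspase-8 signalling, and *Il18* (0.80, 0.000226). CC079 was the lowest strain for all of these except *Il18*, which was lowest in CC036. *Il1b*, the main cytokine product, had a span of 1.13 (adjusted p = 0.0209) and was highest in B6.

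Between response classes 4 of the 29 passed, beside 10.6% of all genes, all higher in responder strains, with a median log2 difference of 0.07 over the list. They were *Casp12* (1.56 ± 0.18 SE, adjusted p = 5.19e-08), *Il18bp*, which neutralises IL-18 (1.17 ± 0.19, adjusted p = 4.74e-05), *Nod1* (0.44 ± 0.11, adjusted p = 0.00817) and *Txnip*, an NLRP3 partner (0.21 ± 0.07, adjusted p = 0.0351). With counts summed per strain none of the 4 passed (adjusted p = 0.334 to 1), and 3 genes in all did. The log2 differences there were 1.66 for *Casp12*, 1.26 for *Il18bp*, 0.46 for *Nod1* and 0.20 for *Txnip*. *Casp12* (chr9:5345430-5373032, + strand) was scarce in macrophages, at 2.48 to 14.9 CPM in responder tumors and 0.9753 to 3.83 CPM in non-responder tumors, and its level was 52.5 CPM in fibroblasts and 30.4 CPM in the unnamed clusters 20 and 25. The part of RNA from those cells was not tested. *Il18bp* had a median of 46.4 CPM (23.2 to 113) in responder and 19.6 CPM (9.95 to 52.6) in non-responder tumors, and these ranges overlapped. In T/NK cells, where 20.2% of all genes differed among strains, *Nek7* (adjusted p = 0.0397) and *Birc3* (adjusted p = 0.0493) were among the list genes that did. Of the 19 list genes tested 1 differed between classes, beside 3.76% of all genes. It was *Birc2*, lower by 0.47 on the log2 scale in responder strains (adjusted p = 0.0116). Tumors of a strain are not independent samples of a class, and the value of *Birc2* with counts summed per strain is not given here. In aPD1 against isotype none of the list passed in either class of cells.

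The members did not move as a unit over the tumors. Over the 48 macrophage samples on the log2(CPM + 10) scale, correlations between pairs of members ran from r = -0.32 (*Nlrp3* with *Pycard*) to 0.68 (*Naip2* with *Naip5*). *Casp4* and *Nlrp3* had r = 0.64, *Gsdmd* and *Pycard* 0.68, and *Nlrc4* and *Nlrp3* -0.25. The CC007 aPD1 tumor of pool 6, with 30 macrophages, was the highest for *Nlrp3* and the lowest for *Pycard*. Without it, an alternative chosen after seeing the data, *Nlrp3* and *Pycard* had r = -0.15, *Nlrc4* and *Nlrp3* -0.04, *Gsdmd* and *Pycard* 0.47, *Casp4* and *Nlrp3* 0.76 and *Naip2* and *Naip5* 0.77. These points share strains, pools and depth, so the values are descriptions.

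The genes most like each member were looked up among all genes with a mean of at least 20 CPM. Over clusters *Naip6* and *Nlrc4* themselves had a mean under that level. Over the 27 clusters *Nlrp3* was closest to *Trem1* (r = 0.96) and *Gm5150* (0.96), *Casp1* to *Ms4a6c* and *Milr1*, *Casp4* to *Cmip* and *Nfkbiz*, *Gsdmd* to *Pira2* and *Rhog*, and *Pycard* to *Fermt3* and *Tnfaip8l2*. *Naip2* and *Naip5* were closest to each other (r = 0.94), then to *Sirpb1a* and *Ppp1r21*, while *Naip6* was closest to *Naip5* (0.93) and *Tep1*, *Nlrp1b* to *Tbxas1* and *March1*, and *Nlrc4* to *Apobec1* and *Adgre1*. Over the 48 tumors in macrophages *Casp4* was closest to *Rab43* and *Irf1* (r = 0.91 each), *Nlrp3* to *Trib1* (0.94) and *Spag9*, *Casp1* to *Il2rg* and *Ifi47*, *Gsdmd* to *March5* and *Mkrn1*, *Pycard* to *Trappc4* and *Snf8*, *Naip2* to *Gpr171* and *Mapkapk3*, *Naip5* to *Lrch1* and *Spata13*, *Naip6* to *Trim30d* and *Dennd1c*, *Nlrp1b* to *Dtx3l* and *Cfb*, and *Nlrc4* to *Shtn1* and *Zfr*. Without the CC007 aPD1 tumor of pool 6 the r of *Nlrc4* with *Shtn1* went from 0.75 to 0.53 and with *Zfr* from 0.73 to 0.49. The r values over tumors ranged from 0.62 to 0.94 for these neighbours, and no p-value is given because the points share libraries and hosts.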

How the data were processed

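Single-cell 5′ RNA-seq libraries of 48 tumors were analysed from the gene by cell table of UMI counts deposited by the authors with a table that assigns each cell to a library, tumor and cluster. The authors aligned reads to GRCm38/mm10 with Cell Ranger and clustered the cells with Seurat 5.0.1. Here UMI counts were summed per tumor over macrophages, T/NK cells or all cells, so that the tumor was the replicate. Clusters were named from marker lists, except clusters 24 and 25 as described above. edgeR 4.0.16 (TMM, filterByExpr) with R 4.3.3 fitted 1 mean per strain and treatment over all 48 tumors, and quasi-likelihood tests were adjusted over all genes by the Benjamini-Hochberg method at 0.05. The SE and 95% interval were derived from the test's p. Levels per tumor or strain are TMM-scaled CPM, those by cell type plain CPM. Figures and sums used Python 3.11.15.

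All 10 members were named, with 6 list genes of smallest adjusted p for strain, those called between classes, and *Il1b*. *Nek7*, *Birc3* and *Birc2* in T/NK cells were named because they were called there, and 1 result of the list is not reported here. The members and lists were chosen with earlier results of these data known. Separate tumors came from separate animals, except that 1 animal identifier stood on 2 tumors. Depth per tumor was 88816 to 17713491 UMIs. Isotype and aPD1 tumors of a strain shared a pool by the labels: deviations from group means correlated at -0.29 to 0.66 over 24 pairs (median 0.30, 19 of 24 over 0.1), and the pool was tried as a block. On simulated data for the macrophage response class, 98% of 100 genes changed by log2 0.5 were recovered, with 8 false calls among 12605 genes. The simulated tumors held no strain or pool effects. The false calls there thus do not measure how often strain differences give a class call in the real data. Alternatives were DESeq2 1.42.0, other size factors, no filter, single clusters, sets of pools, and leaving out tumors or strains.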

Additional observations from a re-analysis of the deposited data

Results flagged for a closer look

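In each strain's 4 to 8 tumors a member's highest or lowest value was set against the gap to its nearest neighbour (Dixon's test). Of 216 groups tested 21 held such a value, where chance gives about 1 in 20.

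A tumor of 248 cells, CC002 isotype of pool 12, gave the most. Its macrophages were apart for *Pycard* (178 CPM), *Nlrp1b* (76.8 CPM) and *Nlrc4* (7.43 CPM), and its cells as a whole for *Pycard* (144 CPM), *Naip6* (15.6 CPM) and *Nlrc4* (3.6 CPM). The CC007 aPD1 tumor of pool 6, with 53 cells, was apart for macrophage *Nlrp3* (222 CPM).

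Macrophage values also stood apart in other tumors, among them CC036 isotype of pool 8 with 833 cells. They were *Nlrp3* in CC075 aPD1 of pool 9 (215 CPM), *Casp4* in CC036 isotype of pool 8 (102 CPM) and in CC079 aPD1 of pool 5 (21.1 CPM), *Gsdmd* in CC001 aPD1 of pool 2 (85.1 CPM), *Naip2* in B6 isotype of pool 6 (195 CPM), *Naip5* in CC036 aPD1 of pool 10 (46.6 CPM) and CC075 isotype of pool 9 (52.3 CPM), and *Nlrp1b* in CC079 isotype of pool 5 (38.2 CPM).

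In T/NK cells the values were *Nlrp3* in CC036 aPD1 of pool 9 (17.8 CPM), *Casp1* (58.2 CPM) and *Pycard* (136 CPM) in CC079 isotype of pool 1, and *Gsdmd* in CC079 isotype of pool 2 (58 CPM). Over all cells they were *Nlrp3* in CC002 aPD1 of pool 12 (85.4 CPM) and *Naip6* in CC036 isotype of pool 8 (10.8 CPM).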

How the results depend on the processing

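Of 3529 values of single members under an alternative, 3369 kept their side of the threshold, 124 lost the call, 36 gained it and 0 called values reversed. Among 1985 values not called in either setting, 92 changed sign. With the pool as a replicate block, the strain test called 4 members and 1892 genes in macrophages, 2 and 619 in T/NK cells and 3 and 985 in all cells, and between classes *Naip6* lost its call in all cells (adjusted p = 0.0648). In the class and aPD1 tests the block changed no other call. Between classes, counts summed per strain gave 0 members and 3 genes in macrophages, 0 and 3 in T/NK cells and 0 and 2 in all cells, with fewer samples by construction. Pools 1 to 5 alone gave 513 genes in macrophages, 0 members and 219 genes in T/NK cells and 0 and 250 in all cells. Pools 8 to 12 alone gave 0 and 159, 0 and 42, and 0 and 41. Cluster 2 alone gave 3957 genes for strain and 767 for class, cluster 5 alone 5 members and 2078 genes for strain, 607 genes for class and 1 gene for the aPD1 effect by class, and cluster 26 alone 3711 genes for strain and 5 members for class. Leaving out a strain, chosen after seeing the data, changed class counts. Without CC001 they were 5 members in macrophages and 1 in all cells, and without CC002 0 in T/NK cells. Without CC036 they were 2 members and 535 genes in T/NK cells and 1195 genes in all cells. Without CC075 they were 0 in T/NK cells and 1 in all cells, and without CC079 0 in T/NK cells and 1 member and 474 genes in all cells. The fits without the animal named on 2 tumors and without cluster 12 were also added after seeing the data. DESeq2 called 1 gene for the aPD1 effect by class in macrophages and 1 for aPD1 in all cells. With no filter on low counts there were 4 genes for the aPD1 effect by strain, 564 for class in T/NK cells and 22 for aPD1 in T/NK cells. Without tumors under 500 cells 3 members differed among strains in T/NK cells. The causes were not tested. Leaving out 1 replicate at a time gave 7 to 9 members (5294 to 6836 genes) for strain and 3 to 4 (984 to 1488) for class in macrophages, 3 to 5 (1249 to 2463) and 1 to 1 (221 to 378) in T/NK cells, and 4 to 7 (4928 to 7154) and 2 to 3 (554 to 909) in all cells. For aPD1 it gave 0 members throughout, with 0 to 2 genes for the effect by class and 0 to 20 genes in T/NK cells.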
